A study of Mus musculus with 60 samples.

Results

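The comparison sets 5 junction libraries of AID-KO cells given DMSO against 5 libraries of WT cells given DMSO, 10 of the 60 libraries in the series. They were chosen by their labels for genotype and treatment, and every junction in them was used, 117403 of 1219247. All 10 came from CH12F3, mouse B-lymphoma cells able to switch to IgA, and the cells had been stimulated for 72 h (anti-CD40 together with IL-4 and TGF-β). AID-KO cells lack activation-induced cytidine deaminase (AID), and WT is the same line with AID. DMSO is the solvent of the EZH2 inhibitors given to other libraries, so both groups are the untreated arm of that experiment. The labels do not say whether AID-KO is 1 clone, nor whether each replicate was its own culture. The p-values therefore reflect library-to-library spread alone, and that spread could be technical.

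AID turns cytosine into uracil in transcribed DNA, and repair of the uracils leaves double-strand breaks in the switch regions that lie before each constant gene of the immunoglobulin heavy chain locus (Igh). In CH12F3 the usual switch runs between the mu and alpha regions. AID also acts, at far lower rates, near the starts of other highly transcribed genes, known as off-targets. The assay, LAM-HTGTS, copies outward from a fixed broken end, the bait, and lists each place to which that end was joined. Places joined in WT and hardly in AID-KO are called AID-dependent, and places joined in both AID-independent. Each value is a share of the junctions in a library, so it gives the distribution of junctions and not their number per cell.

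AID-KO libraries held 10845 to 17692 junctions and WT libraries 9946 to 11953, and no read name occurred in 2 of the libraries. All WT libraries came from 1 sequencing run, AID-KO replicates 1 to 4 from another, and AID-KO replicate 5 from a further run without the others. No run of the series held both AID-KO libraries and libraries of another genotype, so run and genotype cannot be told apart. AID-KO replicate 5 stood apart from its group: 25.3% of its junctions lay within 1 Mb of the bait, against 40.7% to 52.1% in the other AID-KO libraries. Lines repeating the chromosome, position and strand of an earlier line numbered 9321 in AID-KO and 5541 in WT, all on the bait chromosome, and 0 on any other chromosome in either group.

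Igh junctions nearly disappeared without AID, which is the check of the genotype label. The Igh share of all junctions in AID-KO replicates 1 to 5 was 0.0223%, 0.0628%, 0.0277%, 0.0168% and 0.0396%. In WT replicates 1 to 5 it was 3.39%, 3.63%, 3.64%, 3.31% and 3.26%. Every AID-KO library lay far below every WT library, at 0.0338% ± 0.0182 against 3.44% ± 0.178 (SD, n = 5 each). The difference was -3.41 percentage points (two-sided exact permutation test over 10 shares, adjusted p = 0.0317, with a raw p of 0.00794, the lowest reachable with 5 libraries a group). The adjusted p of this share and of the off-target share below was 0.0529 to 0.0794 when AID-KO replicate 1, 2, 3 or 4 was left out, and 0.0265 to 0.0397 when any other library was. The Igh difference itself stayed between -3.46 and -3.36 points throughout, without overlap of the groups. The adjusted p also depends on the p-values of the other shares.

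**Figure D1:**
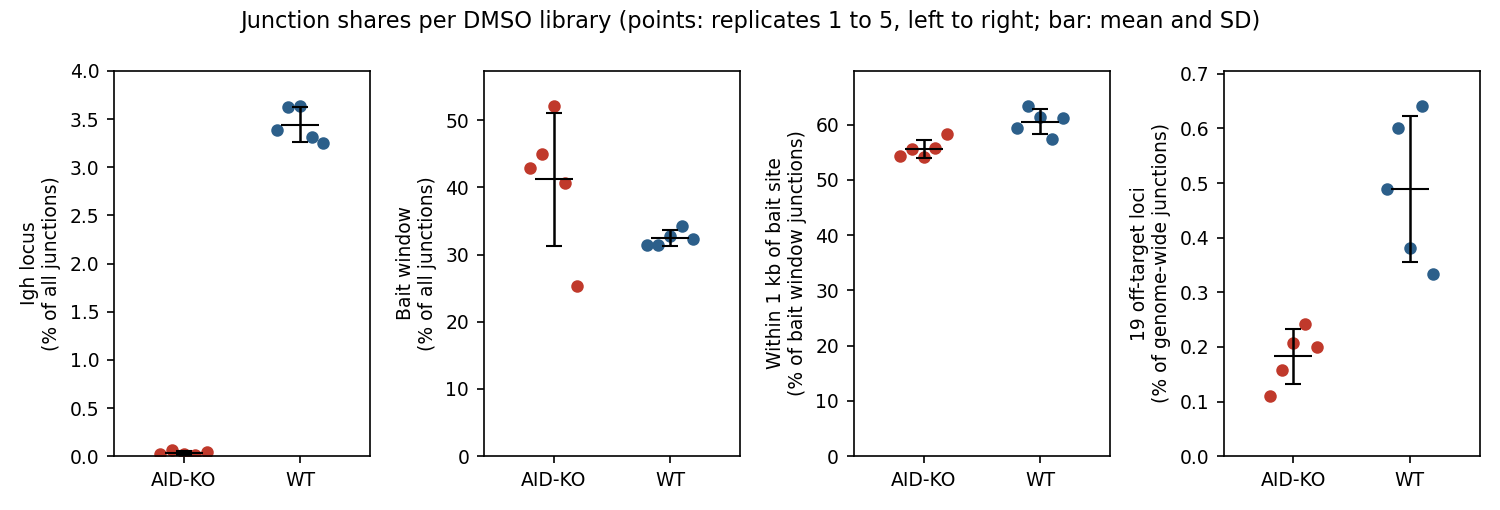
Each panel plots 1 share, in percent, per library, AID-KO left and WT right, with the mean and SD as bars. The Igh and off-target shares separate the groups, with AID-KO at 0.0338% and 0.183% and WT at 3.44% and 0.489%, whereas the bait window share of AID-KO replicate 5 (25.3%) lies below every WT library.

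Within Igh the loss fell on the switch regions. All 5 AID-KO libraries together had 4 junctions in the 5 switch parts, whereas the WT libraries had 1778 of their 1800 Igh junctions there. The switch parts were outlined after the WT profile had been seen.

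Switch region mu, the donor of every switch, had 0, 2, 0, 0 and 0 junctions in AID-KO replicates 1 to 5. In WT replicates 1 to 5 it had 165, 162, 178, 181 and 152. The densest 1 kb in WT, chromosome 12 from 114663000 to 114663999 (mm9), held 502 junctions, and AID-KO had 0 in it. Switch region alpha, the acceptor for IgA, had 0, 0, 1, 0 and 1 junctions in AID-KO, against 130, 151, 137, 166 and 133 in WT. Its densest 1 kb ran from 114501000 to 114501999 and held 365 WT junctions. At neither region did the groups overlap. The AID-KO to WT ratio was 0.00192 for mu (95% exact interval 0.000232 to 0.00696) and 0.00224 for alpha (0.000271 to 0.00814), where the intervals cover counting error only.

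The gamma regions, acceptors for the IgG classes, had no junction at all in AID-KO. A count of 0 in 65054 junctions allows a share of up to 0.00461%, with 3 junctions as the limit. WT had 106 junctions at gamma2b, 64 at gamma3 and 53 at gamma1. WT was thus at least 43.9-fold higher at gamma2b, 26.5-fold at gamma3 and 22.0-fold at gamma1, with the floor set over the group of libraries. For all 5 switch parts the exact permutation test gave an adjusted p of 0.00952 over 6 parts of the locus.

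The rest of Igh held similar numbers in both groups: 18 junctions in AID-KO and 22 in WT, with shares of 0.0273% ± 0.0119 and 0.0418% ± 0.0216 (SD, n = 5 each, exact permutation test, adjusted p = 0.238). Of the 22 Igh junctions left in AID-KO, 18 therefore lay outside the switch regions. In WT, mu and alpha junctions fell on both strands, 49.8% of mu and 54.7% of alpha junctions being on the plus strand. The mu to alpha ratio in WT libraries ran from 1.07 to 1.30.

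**Figure D2:**
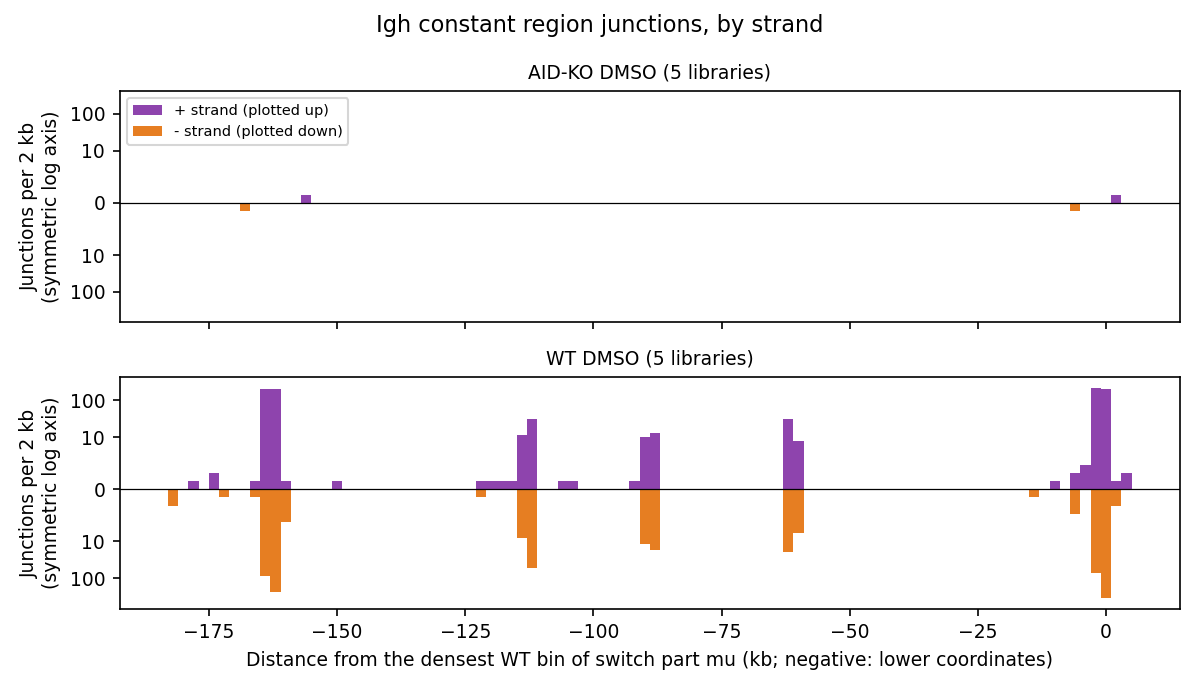
Junctions per 2 kb over the Igh constant region in the 5 AID-KO libraries (upper panel) and the 5 WT libraries (lower panel), on a symmetric log axis, against the distance from the densest bin of switch region mu in kb. Plus strand junctions are drawn upward and minus strand junctions downward. WT shows 5 peaks, from alpha at the left to mu at 0, and the 4 AID-KO junctions in the switch parts lie at -168, -156, -6 and 2 kb, outside the fullest WT bin of each part.

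The light chain loci did not separate the groups. Igk and Igl together had 0.0310% ± 0.0126 of all junctions in AID-KO and 0.0419% ± 0.0209 in WT (SD, n = 5 each, exact permutation test, adjusted p = 0.388). Igk held 19 junctions in AID-KO and 21 in WT, and Igl held 1 in each. Within Igk, 1 stretch of 10 kb on chromosome 6, from 70670000 to 70679999, had 1 junction in AID-KO and 11 in WT, spread over 4 WT libraries. That stretch was picked as the densest in WT after its values were seen, and has no test.

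AID off-target loci carried fewer junctions in AID-KO. The 19 listed loci outside the bait chromosome held 0.110%, 0.157%, 0.206%, 0.241% and 0.200% of genome-wide junctions in AID-KO replicates 1 to 5, where genome-wide leaves out chromosome 15 and the immunoglobulin loci. In WT replicates 1 to 5 they held 0.490%, 0.601%, 0.380%, 0.641% and 0.333%. No AID-KO library reached any WT library, and the difference was -0.306 percentage points (exact permutation test, p = 0.00794, adjusted p = 0.0317). The list was written with earlier results of these data known, so its direction is no independent evidence. Of the 20 listed loci, 12 had 5 or more junctions in the 10 libraries. The total was lower in AID-KO at 9 of these 12, higher at 2 and equal at 1. The other 8 loci had under 5 junctions each.

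AGCT is a known hotspot motif of AID and reads the same on both strands. The 250 bases before the annotated start are shown for Zfp36l1 and Nfkbia, the 2 listed genes on chromosome 12 and both lower in AID-KO, with AGCT in capitals. The sequences are RefSeq's, in GRCm38.p6 on the minus strand of chromosome 12, at chr12:80113014-80113263 and chr12:55492648-55492897. These positions belong to another build than the mm9 junctions. The promoter table held 16 of the 20 listed loci.
Zfp36l1: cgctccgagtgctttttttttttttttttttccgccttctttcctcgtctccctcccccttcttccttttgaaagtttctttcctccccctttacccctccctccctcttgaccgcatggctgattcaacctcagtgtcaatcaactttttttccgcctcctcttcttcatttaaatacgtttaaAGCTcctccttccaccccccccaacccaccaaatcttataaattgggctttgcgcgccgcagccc
Nfkbia: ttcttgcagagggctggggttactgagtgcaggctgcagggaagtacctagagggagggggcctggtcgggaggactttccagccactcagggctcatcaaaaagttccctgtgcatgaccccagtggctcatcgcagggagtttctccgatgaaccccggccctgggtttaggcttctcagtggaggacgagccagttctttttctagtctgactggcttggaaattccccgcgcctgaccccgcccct
The Zfp36l1 stretch holds 1 AGCT and the Nfkbia stretch 0, and 70.4% of all 32851 stretches of this length in the table hold at least 1. A match describes the letters only.

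Zfp36l1, which encodes an RNA-binding protein that speeds mRNA decay, had 0 junctions in every AID-KO library. In WT replicates 1 to 5 it had 6, 11, 6, 8 and 3. Its stretch of 250 bases is the one printed above with an AGCT. WT was at least 13.2-fold higher per genome-wide junction. Ly6e, a membrane-anchored surface protein gene on the bait chromosome, also had 0 in every AID-KO library, against 4, 1, 7, 7 and 3 in WT. Cd83, a surface protein of activated B cells, had 0 in every AID-KO library, against 2, 1, 1, 7 and 3 in WT. These 3 loci had a junction in every WT library and in no AID-KO library. For loci outside the bait chromosome a count of 0 in 36941 genome-wide AID-KO junctions allows a share of up to 0.00812%.

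Nfkbia, which encodes the NF-κB inhibitor IκBα, had 0, 1, 0, 1 and 0 junctions in AID-KO, against 4, 6, 2, 1 and 4 in WT. Its AID-KO to WT ratio was 0.101 (95% exact interval 0.0113 to 0.425). Cd74, the invariant chain of MHC class II, had 1, 1, 1, 0 and 1 junctions in AID-KO, against 3, 2, 3, 4 and 2 in WT. At Cd74 each WT library thus had more junctions than any AID-KO library, while AID-KO still had a junction in 4 of 5 libraries. Mir17hg, the host gene of a microRNA cluster, had 3 junctions in AID-KO and 10 in WT. Counted to 10 kb beyond its ends, the totals were 4 and 24. Pim1, a kinase gene, had 1 and 6, with a ratio of 0.143 (95% exact interval 0.00310 to 1.18) that includes equality.

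At 4 further loci, several of them long genes of B-cell transcription factors, no difference was seen beyond counting error. Ebf1, which sets up the B lineage, had 3, 2, 3, 6 and 10 junctions in AID-KO, against 6, 1, 0, 7 and 4 in WT. Its ratio was 1.14 (95% exact interval 0.594 to 2.23). Aff3, a nuclear protein of the elongation factor family, had 11 junctions in each group. Bach2, a transcriptional repressor in B cells, had 12 in AID-KO and 19 in WT, a ratio of 0.541 (0.240 to 1.17). Pax5, the factor that holds B-cell identity, had 3 and 5. At each of these 4 the 95% exact interval of the ratio included equality.

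Across the genome in windows of 1 Mb, limma voom tested 205 windows with a mean of at least 5 junctions over the 10 libraries. A window could pass this filter through its counts in 1 group alone, so the shares called cannot be read apart from it. It called 1 window higher in AID-KO (0.488%) and 10 lower (4.88%) at an adjusted p under 0.05, and 31 windows had an unadjusted p under 0.05. The exact permutation test called 0 of the 205 after adjustment, with 30 under 0.05 unadjusted, and quasi-Poisson regression called 3. The exact test cannot go below a p of 0.00794, and even the Igh window from 114 Mb, where the groups did not overlap, had an adjusted p of 0.125 by it. Its 0 calls therefore say nothing about single windows. Leaving out AID-KO replicate 5 left 4 calls among 141 windows tested, and leaving out WT replicate 5 left 7. With trimmed mean of M values scaling, in place of genome-wide junction totals, 2 windows were called higher in AID-KO and 8 lower.

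In windows of 100 kb, 30 passed the filter of a mean of at least 2 junctions. AID-KO was higher in 2 (6.67%) and lower in 19 (63.3%) by limma voom. These shares cannot be read apart from the filter, since 21 of the 30 reached a mean of 2 in WT and not in AID-KO. Trimmed mean of M values scaling over the 30 windows called 5 higher in AID-KO and 13 lower, kept 15 of the 21 calls, and raised the log2 fold changes of 12 named windows by a median of 1.04 without turning the direction of any of them. With a mean of at least 1, 501 windows were tested and 29 were called (5.79%), 27 of them lower in AID-KO and 2 higher. In 14 of the 19 windows called lower at a mean of at least 2, every WT library had more junctions than every AID-KO library. Those windows were called on the same counts, so this adds no evidence, and no such share was taken over all 30.

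The windows with the lowest AID-KO to WT fold changes were the 2 Igh windows from 114.5 and 114.6 Mb of chromosome 12. They had 1 and 2 junctions in AID-KO, against 851 and 904 in WT, with log2 fold changes of -8.24 ± 0.40 and -8.18 ± 0.50 (SE). After them came the window of Ly6e from 74.7 Mb of chromosome 15. It held 0, 0, 0, 1 and 0 junctions in AID-KO, against 11, 10, 15, 13 and 8 in WT. Its log2 fold change was -4.37 ± 0.46, and 30 of its 57 WT junctions lay in the 1 kb from 74763000. The counts do not overlap.

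A window with no listed gene, from 32.4 Mb of chromosome 14, had 2, 0, 0, 0 and 0 junctions in AID-KO, against 11, 8, 12, 7 and 7 in WT. Of its 45 WT junctions, 42 lay in the 1 kb from 32427000 to 32427999, where AID-KO had 0. Its log2 fold change was -3.89 ± 0.50. So the WT signal there was narrower than at Zfp36l1, where 13 of 39 WT junctions in the window from 81.2 Mb of chromosome 12 lay in the densest 1 kb. The Zfp36l1 window had 1 junction in AID-KO and a log2 fold change of -3.79 ± 0.45.

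A pair of chromosome 8 windows without a listed gene were also among the 10 lowest. The window from 97.2 Mb had 2, 1, 1, 0 and 1 junctions in AID-KO, against 8, 8, 12, 7 and 6 in WT, with 29 of the 41 WT junctions on the plus strand. Its log2 fold change was -2.88 ± 0.47. The window from 129.1 Mb had 1 junction in AID-KO and 19 in WT. Further lower windows of the 10 lay at 79.9 Mb of chromosome 15, with 5 junctions in AID-KO and 32 in WT, at 61.4 Mb of chromosome 11, with 2 and 20, and at 114.4 Mb of chromosome 12, with 4 and 37. The last of these holds the edge of the alpha peak: 25 of its 37 WT junctions lay from 114499000 to 114499999. The windows of Cd83, Nfkbia, Mir17hg and Cd74 were called too, with log2 fold changes of -2.48, -1.85, -1.97 and -1.76.

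**Figure D3:**
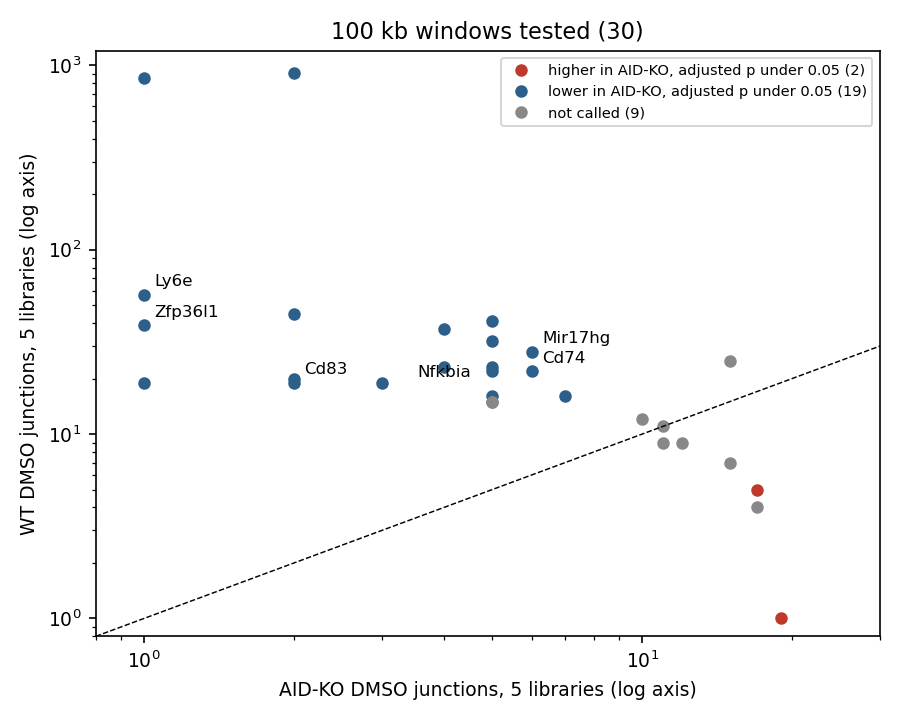
Each point is 1 of the 30 windows of 100 kb tested, with its AID-KO junctions (x) and WT junctions (y) summed over 5 libraries on log axes, and the dashed line marks equal counts. The 2 Igh windows lie at the top with 1 and 2 AID-KO junctions, listed genes are named, and the 2 windows called higher in AID-KO lie at the lower right.

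The DMSO calls were set against tazemetostat and valemetostat libraries, which did not enter that fit. Of the 21 windows called, 16 passed the filter with tazemetostat (4 AID-KO and 5 WT libraries), all 16 with the same direction, and 13 were called. With valemetostat (3 AID-KO and 8 WT libraries) 10 passed the filter and all 10 were called with the same direction. Of all windows tested, 74.3% were called with tazemetostat (21 lower and 5 higher in AID-KO) and 55.6% with valemetostat (14 lower and 1 higher). The window at 32.4 Mb of chromosome 14 did not pass the filter with valemetostat. Neither did the 2 windows called higher in AID-KO with DMSO, so the 10 tested were all windows called lower. Of these 2 higher windows, both on chromosome 3, that from 95.3 Mb did not pass with tazemetostat and that from 95.4 Mb was called. AID-KO tazemetostat libraries shared the run of AID-KO DMSO replicates 1 to 4, and AID-KO valemetostat libraries that of AID-KO DMSO replicate 5. WT tazemetostat libraries shared the run of WT DMSO, and WT valemetostat libraries came from a further run. Run and genotype thus cannot be told apart in these libraries either.

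Both windows called higher in AID-KO lay on chromosome 3, from 95.3 and 95.4 Mb. The first had 2, 1, 7, 2 and 7 junctions in AID-KO, against 0, 0, 0, 0 and 1 in WT, with a log2 fold change of 2.34 ± 0.55. The second had 17 and 5, with a log2 fold change of 1.48 ± 0.51. The only 1 Mb window called higher, from 95 Mb of the same chromosome, had 16, 9, 20, 20 and 27 junctions in AID-KO, against 3, 2, 4, 3 and 8 in WT. Every AID-KO library exceeded every WT library there, and the log2 fold change was 2.0 ± 0.55 (limma voom, adjusted p = 0.0155). It missed the threshold without WT replicate 4 (adjusted p = 0.0647) or WT replicate 5 (0.132) and with quasi-Poisson regression (0.0620). Both 100 kb windows passed the filter through their AID-KO counts, since neither reached a mean of 2 junctions in WT. Neither passed it without AID-KO replicate 5. The window from 95.3 Mb also failed it without AID-KO replicate 3, and that from 95.4 Mb without AID-KO replicate 4.

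AID-KO junctions in that region were spread out. The stretch from 95000000 to 95599999, whose bounds were set after its values were seen, held 85 AID-KO junctions at 81 distinct positions, 42 of them on the plus strand. Its 6 windows of 100 kb held 8 to 19 junctions each in AID-KO and 0 to 5 each in WT. Its share of genome-wide junctions was 0.244% ± 0.101 in AID-KO and 0.0409% ± 0.0177 in WT (SD, n = 5 each). In libraries that did not choose the bounds it was 0.307% ± 0.0471 in AID-KO (n = 4) and 0.0412% ± 0.0226 in WT (n = 5) with tazemetostat, and 0.167% ± 0.0281 (n = 3) and 0.0419% ± 0.0226 (n = 8) with valemetostat. The 6 other groups of the series, WT plus idelalisib and Lig4-KO, averaged 0.0299% to 0.0506%. No run held AID-KO libraries together with these or with WT.

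Among the 10 windows of 100 kb with the most AID-KO junctions outside the bait window, 4 belonged to this stretch. The 10 windows held 12 to 19 AID-KO junctions each. The window from 39.9 Mb of chromosome 17 had 2, 4, 4, 2 and 3 junctions in AID-KO, against 8, 6, 4, 3 and 4 in WT, so it was a recurrent place in both groups (limma voom, adjusted p = 0.0889). The window from 125.9 Mb of chromosome 8 had 13 in AID-KO and 2 in WT, and was below the filter. On chromosome 15 the windows from 58.7, 59.8, 63.8 and 102.8 Mb completed the list, with 12, 12, 12 and 15 junctions in AID-KO, against 1, 2, 9 and 7 in WT.

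Genome-wide junctions, off-target loci included, also fell differently over whole chromosomes, a comparison added after the values were seen. Of 19 chromosomes, 3 held a higher share of genome-wide junctions in AID-KO (15.8%) and 2 a lower share (10.5%) by the exact permutation test at an adjusted p under 0.05. Chromosome 16 held 5.85%, 5.67%, 5.72%, 5.23% and 5.38% in AID-KO replicates 1 to 5. In WT replicates 1 to 5 it held 3.82%, 3.64%, 3.77%, 3.85% and 3.65%. The lowest AID-KO library was well above the highest WT library, and the ratio of the means was 1.49 (difference 1.82 points, adjusted p = 0.0302). The difference was 1.87 points without replicate 5, the AID-KO library of another run.

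The chromosome 16 difference was spread along the chromosome: 18 of its 20 windows of 5 Mb were higher in AID-KO and 2 were lower, with a median log2 ratio of 0.61. Such a spread was not particular to chromosome 16. On chromosome 3, 25 of 32 windows were higher (median 0.248), and on chromosome 18, 14 of 18 (median 0.352). On chromosomes 12 and 13, 19 of 24 were lower on each. The shares count junctions, and the DNA copy number of these chromosomes, or of the chromosome 3 stretch, was not measured here. The chromosome 16 difference also appeared with tazemetostat, at 5.28% ± 0.199 in AID-KO (n = 4) and 3.85% ± 0.351 in WT (n = 5, exact permutation test, adjusted p = 0.0503). With valemetostat it was 5.38% ± 0.222 in AID-KO (n = 3) and 3.82% ± 0.252 in WT (n = 8, exact permutation test, adjusted p = 0.0384). In the 48 libraries of the series that are not AID-KO the share ran from 3.35% to 4.46%, below every AID-KO DMSO library. Their 9 group means lay between 3.70% and 3.85%. None of these 48 libraries shared a run with an AID-KO library.

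Chromosome 3 held 6.77% ± 0.267 in AID-KO and 5.67% ± 0.171 in WT, and chromosome 18 held 4.14% ± 0.157 and 3.50% ± 0.282 (SD, n = 5 each). Chromosome 12 outside Igh held 4.77% ± 0.143 in AID-KO and 5.84% ± 0.110 in WT, and chromosome 13 held 4.24% ± 0.192 and 4.91% ± 0.247. The groups did not overlap on these 4 chromosomes either (exact permutation test, adjusted p = 0.0302 for each). Without the called windows of 100 kb the differences were 0.969 points on chromosome 3, 0.657 on chromosome 18, -0.942 on chromosome 12 and -0.631 on chromosome 13, all with the same adjusted p. With tazemetostat and with valemetostat chromosome 18 was again higher and chromosome 12 again lower in AID-KO, without overlap. Chromosome 13 overlapped in both. Chromosome 3 differed by 0.537 points with tazemetostat, with overlap (adjusted p = 0.176 by the exact test). With valemetostat the chromosome 3 difference was 0.716 points, without overlap (adjusted p = 0.0576 by the exact test). All 5 chromosomes missed the threshold without AID-KO replicate 1 (adjusted p = 0.0503), and chromosome 18 also without AID-KO replicate 2, 4 or 5 (adjusted p = 0.0603).

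**Figure D4:**
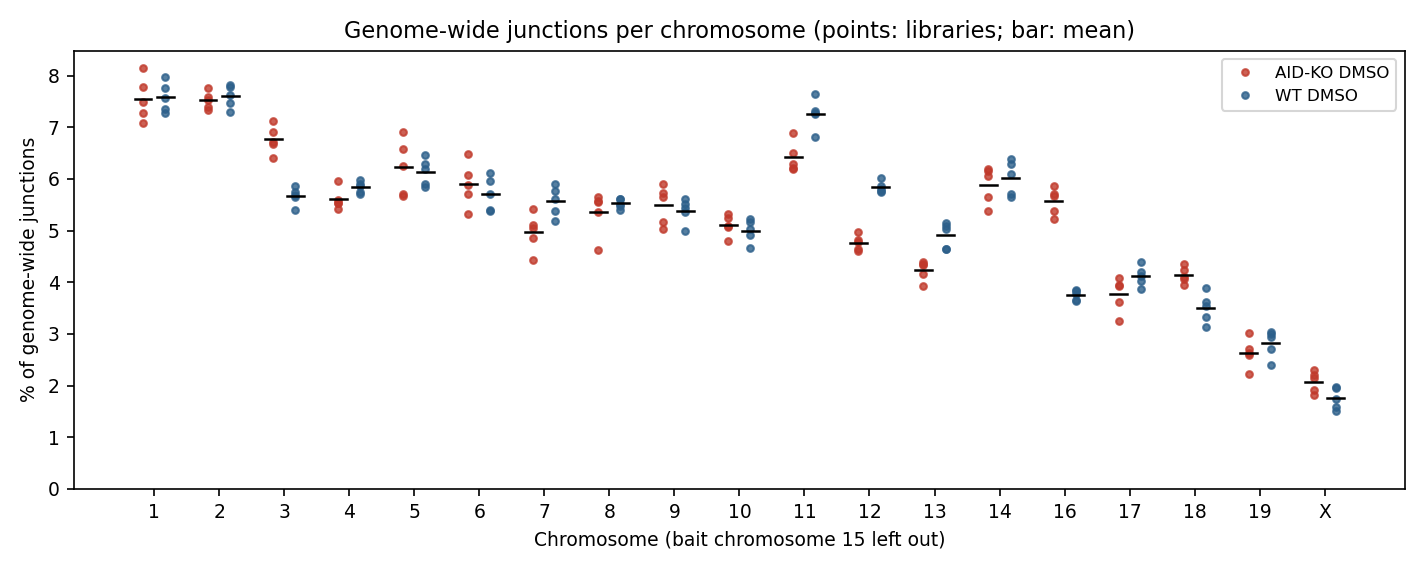
Share of genome-wide junctions on each chromosome, in percent, for the 5 AID-KO libraries (left of each pair) and the 5 WT libraries (right), with the mean as a bar. Chromosome 16 stands apart, at 5.57% in AID-KO and 3.75% in WT.

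Of the junctions around the bait, a smaller share lay close to the bait site in AID-KO. The share is taken among bait window junctions, and the same distances as a share of all junctions were not tested. The bait lies on chromosome 15, and the densest stretch in AID-KO ran from 61818800 to 61818999. Of the junctions within 1 Mb of it, 55.6% ± 1.63 in AID-KO and 60.6% ± 2.27 in WT lay within 1 kb (SD, n = 5 each). The difference was -4.93 percentage points (exact permutation test, p = 0.0159, adjusted p = 0.0317), although AID-KO replicate 5 at 58.3% overlapped the lowest WT library at 57.4%. From 1 to 20 kb the shares were 40.6% ± 1.66 in AID-KO and 35.8% ± 1.99 in WT (exact permutation test, adjusted p = 0.0317). With repeated lines counted 1 time these differences were -7.74 and 7.16 points (adjusted p = 0.0198 for both). Both calls were lost (adjusted p 0.0595 to 0.0794, exact permutation test) without AID-KO replicate 1, 2, 3 or 4 or WT replicate 2 or 3.

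The shift depended on the side of the bait site, which was set at the centre of the densest stretch in AID-KO. On the side with lower coordinates, the first 100 bp held 8.72% ± 1.1 of bait window junctions in AID-KO and 13% ± 0.968 in WT. On the other side the first 100 bp held 12.0% ± 0.960 in AID-KO and 9.91% ± 0.911 in WT. From 5 to 20 kb AID-KO was higher on both sides, at 2.99% ± 0.177 against 2.32% ± 0.292 on the lower side and 6.42% ± 0.317 against 4.82% ± 0.383 on the higher side. By exact permutation tests over 16 distance bins, the adjusted p was 0.0363 for the higher first 100 bp. It was 0.0254 for the other 3 bins above by the same tests (SD, n = 5 each). The rise from 1 to 20 kb was not in every bin. From 1 to 2 kb on the higher side AID-KO was lower, at 9.07% against 10.1% (same tests, adjusted p = 0.0363). On the lower side that bin was higher in AID-KO by 0.765 points but missed the threshold (same tests, adjusted p = 0.0508). From 2 to 5 kb AID-KO was higher on both sides, and both bins passed. Also passing on the higher side were 500 bp to 1 kb, lower in AID-KO, and 20 to 100 kb, higher. Plus strand junctions dominated on the higher side in both groups: from 2 to 5 kb, 91.4% of AID-KO and 90.6% of WT junctions on the higher side were plus strand, and 8.31% and 12.6% on the lower side. In the first 100 bp of the lower side, however, 89.3% of AID-KO and 90.8% of WT junctions were plus strand, as on the higher side. The first 100 bp on each side therefore cannot be read as the 2 sides of the break, whose exact place was not tested.

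**Figure D5:**
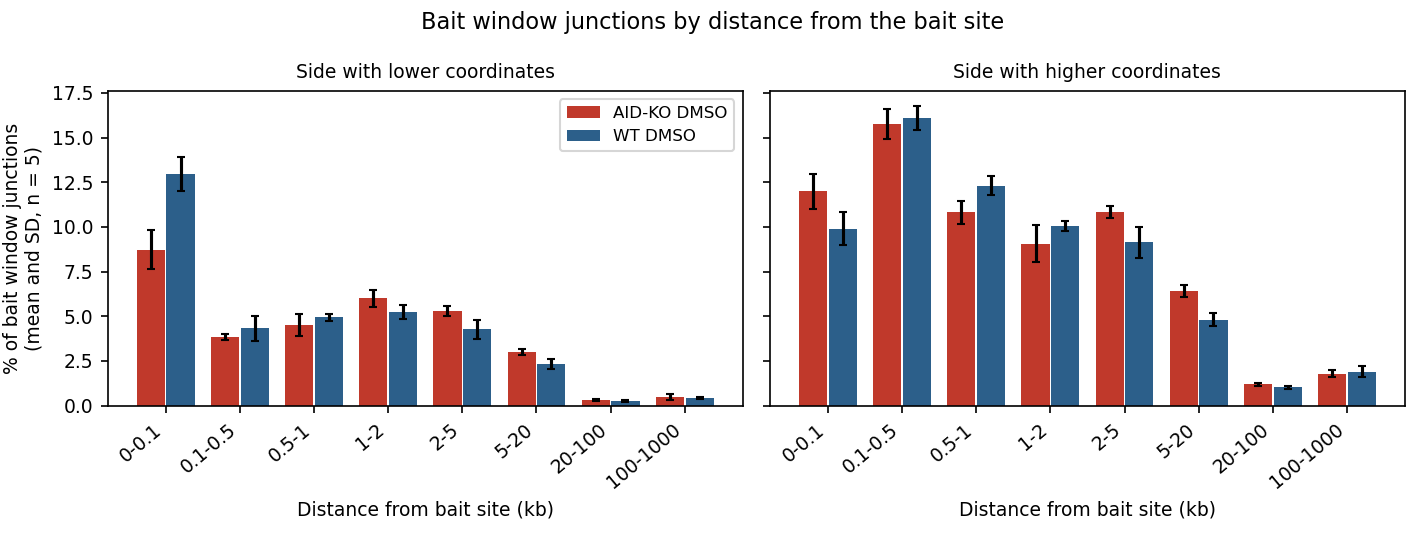
Share of bait window junctions, in percent, by distance from the bait site in kb on the side with lower (left panel) and higher (right panel) coordinates. Bars are the mean and SD of 5 AID-KO (left bar) and 5 WT libraries (right bar). AID-KO is lower in the first bin on the left panel, at 8.72% against 13%, and higher from 5 to 20 kb in both panels.

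The bait window as a whole took 42.9%, 45.0%, 52.1%, 40.7% and 25.3% of all junctions in AID-KO replicates 1 to 5, against 31.4%, 31.4%, 32.7%, 34.2% and 32.4% in WT. The mean difference of 8.78 points missed the threshold (adjusted p = 0.106 by the exact permutation test), while without AID-KO replicate 5 it was 12.8 points (adjusted p = 0.0265). Genome-wide junctions made up 55.2% ± 9.56 of AID-KO and 60.5% ± 1.16 of WT libraries (SD, n = 5 each, exact permutation test, adjusted p = 0.388). Without AID-KO replicate 5 that difference was -9.14 points (adjusted p = 0.0265). Counted among junctions outside the bait window, the genome-wide share was 93.9% ± 0.566 in AID-KO and 89.6% ± 0.342 in WT (exact permutation test, adjusted p = 0.0265), so its direction depends on the denominator.

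The rest of chromosome 15 held 3.51% ± 0.369 of all junctions in AID-KO and 3.57% ± 0.114 in WT (SD, n = 5 each, exact permutation test, adjusted p = 0.754). Among junctions outside the bait window it held 6.02% ± 0.538 in AID-KO and 5.29% ± 0.221 in WT, a difference that passed (exact permutation test, adjusted p = 0.0340), so this call too depends on the denominator. Its junctions lay on different sides of the bait. The side with lower coordinates held 55.1% ± 1.74 of them in AID-KO and 47.3% ± 3.31 in WT, without overlap (exact permutation test, p = 0.00794, chosen after the values were seen). Without the called windows, which include Ly6e on the higher side, the shares were 55.3% and 49.7% (p = 0.0159 by the same exact test).

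Genome-wide junctions were less concentrated in AID-KO, and no difference in orientation passed the test. The plus strand held 49.8% ± 0.496 of them in AID-KO and 50.2% ± 0.679 in WT (SD, n = 5 each, exact permutation test, adjusted p = 0.388). The fullest 1% of 1 Mb windows in each library, 25 windows after thinning to 4846 junctions, held 4.14% ± 0.209 in AID-KO and 4.63% ± 0.255 in WT. That difference of -0.491 points passed with overlapping groups (exact permutation test, p = 0.0159, adjusted p = 0.0317), and missed (0.0529 to 0.0794) without the same 6 libraries as the bait shares.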

How the data were processed

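Per the labels, LAM-HTGTS libraries of CH12F3 cells were pooled and read as paired-end 250 on a MiSeq, and positions refer to mm9 per the submitters' processing notes. The authors deposited, for each library, 1 line per junction with its position (a value of another kind than a measurement) and a score between 16 and 222 of unstated meaning, which entered no test. Aligner, caller and filters: not given in the sources used here.

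Libraries were grouped by labels, and runs were read from read names. From the deposited positions, shares per library were computed with Python 3.11.15, numpy 2.4.6, pandas 2.3.3 and scipy 1.17.1, and compared by exact two-sided permutation tests over all 252 splits with Benjamini-Hochberg adjustment over 10 shares, 6 Igh parts, 19 chromosomes or 16 distance bins. For window tallies the test was voom from limma 3.58.1 under R 4.3.3. Its library size was the number of genome-wide junctions, and windows needed a mean tally of 5 (1 Mb) or 2 (100 kb). Windows of chromosome 15 and Igh were tested too, although that library size leaves them out. On simulated tallies of the DMSO comparison, 51 of 204 windows of 1 Mb were changed, up or down. There voom recovered 32% of 2-fold and 84.6% of 4-fold changes, and 9.09% of its calls were false. The spread between libraries was set and not estimated from these data, and no run effect was simulated. These rates therefore need not hold for the real tallies.

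The members, loci, Igh parts and distances were chosen with earlier results of these data known. Loci were outlined from knowledge, and all 20 had the same chromosome in a gene table of GRCm38.p6, used for names and order only. Named are Igh and its parts, Igk, Igl, the listed loci with 5 or more junctions (1 is not reported here), up to 10 called windows with the largest rise or fall, and the 10 windows of 100 kb with most AID-KO junctions; not all called 1 Mb windows are printed. Chromosome shares, sides of the bait and the chromosome 3 stretch were chosen after values were seen. Same-numbered libraries of the 2 groups did not deviate together (correlations from -0.0570 to 0.0489, 2 of 5 best with their own number), so numbers were not used as pairs. Alternatives covered repeated lines, denominators, thinning, filters, other tests, runs and each library left out.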

Additional observations from a re-analysis of the deposited data

Results flagged for a closer look

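Of 72 groups of 5 values tested for a sample far from the others, 4 held one, and chance flags about 1 in 20 groups. AID-KO replicate 5 had 37.7% of its bait window junctions 1 to 20 kb from the bait, against 40.9% to 41.9% in the other AID-KO libraries. AID-KO replicate 2 had a mu share of 0.0179% from its 2 junctions, while the other AID-KO libraries had 0. AID-KO replicate 1 had 4.63% of its genome-wide junctions on chromosome 8, against 5.37% to 5.65% in the others. WT replicate 4 was the deepest WT library with 11953 junctions, against 9946 to 10353.

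The AID-KO to WT difference itself differed between valemetostat and DMSO in 1 of 23 windows of 100 kb, 0 of 273 of 1 Mb (25 with an unadjusted p under 0.05) and 1 of 493 of 5 Mb, by the interaction in limma voom. The 100 kb window from 32.4 Mb of chromosome 14 had an interaction of 3.06 on the log2 scale (adjusted p = 0.00522). With valemetostat it held 5 junctions in AID-KO and 15 in WT, and with DMSO 2 and 45. The 5 Mb window of chromosome 12 that holds the Igh constant region had an interaction of 1.28 (adjusted p = 0.000463). With valemetostat it held 0.232 junctions per 100 genome-wide junctions in AID-KO and 2.45 in WT, and with DMSO 0.243 and 5.99. In both the WT level differed between the treatments by more than the AID-KO level. WT valemetostat and WT DMSO libraries came from different runs, so run and treatment cannot be told apart there.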

How the results depend on the processing

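Repeated lines counted 1 time turned the difference in the rest of chromosome 15 to 0.113 points, and junctions outside the bait window as denominator turned it to 0.735 (adjusted p = 0.0340) and the genome-wide difference to 4.31 (0.0265). With 1 library left out, differences in the shares ran from -3.46 to -3.36 (Igh), 6.04 to 12.8 (bait window), -5.71 to -4.22 (within 1 kb), 4.09 to 5.47 (1 to 20 kb), -0.199 to 0.0285 (rest of chromosome 15), -9.14 to -2.66 (genome-wide), -0.345 to -0.268 (off-target) and -0.575 to -0.399 (fullest windows). Adjusted p then reached 0.0794 for Igh and off-target (missed without AID-KO replicate 1, 2, 3 or 4) and for 1 kb, 1 to 20 kb and fullest windows (missed without these and without WT replicate 2 or 3). With the replicate block, an exact sign-flip test whose smallest p is 0.0625, these 5 differences stayed at -3.41, -0.306, -4.93, 4.75 and -0.491 with adjusted p = 0.125, and mu, gamma3, gamma1, gamma2b and alpha at -1.60, -0.124, -0.103, -0.201 and -1.37 with adjusted p = 0.0750. With the block as a factor, limma voom called 11 windows of 1 Mb and 24 of 100 kb.

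The 11 calls at 1 Mb became 3 with quasi-Poisson regression, 0 with the exact permutation test, 24 with run as a random block and 5 among windows of 5 Mb, and 4 to 13 with 1 library left out (4 without AID-KO replicate 5, 7 without WT replicate 5). At 100 kb the 21 calls became 17 to 21 with 1 library left out, and 18 to 24 over the alternatives with the same filter. Over 205 windows of 1 Mb the exact permutation test, with a lowest p of 0.00794, could call a window only if many windows reached that p. The cause of the other changes was not tested.

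Chromosome shares that did not pass changed sign in some settings. With 1 library left out, chromosome 1 ran from -0.179 to 0.0889 points, chromosome 5 from -0.0914 to 0.219 and chromosome 8 from -0.247 to 0.0102. Chromosome 14 turned without called windows (0.0240). With tazemetostat chromosomes 1, 5, 6, 8, 9, 10 and 19 had 0.355, -0.0935, -0.0469, 0.0456, -0.0985, -0.0907 and 0.0537. With valemetostat chromosomes 1, 5, 6 and 8 had 0.185, -0.185, -0.333 and 0.163. Chromosomes 3, 12, 13, 16 and 18 kept their direction in each of 15 settings, and missed the threshold in 4, 3, 4, 3 and 6 of them, with an adjusted p of 0.132 under the replicate block. Loci with few junctions are limited by depth: 3 junctions are 0.0170% to 0.0302% of a library.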
